A study of Mus musculus with 2 samples.

Results

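Of the 25834 cell barcodes with 500 or more UMIs (unique molecular identifiers, each a distinct captured RNA molecule) in 2 single-cell libraries, 237 carried myogenic transcripts at low depth, 27 in the WT library and 210 in the KO library. A barcode was a member when it held 1500 to fewer than 5000 UMIs, at most 10% of them mitochondrial, with at least 2 UMIs in the sum of Pax7, Myf5, Myod1, Myog and Cdh15 and none of Csf1r, Pdgfra or Cdh5, which mark phagocytes, fibro-adipogenic cells and endothelium. The values of these 8 genes, the mitochondrial share and the depth therefore chose the members, and they are given below only as a description. Barcodes with 5000 or more UMIs chosen by the same gene sums, 591 WT and 327 KO, served as the deep reference, and the pooled 20- to 100-UMI barcodes of each library as the measure of ambient RNA, the free RNA that enters every droplet.

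The study followed muscle stem cells during regeneration of mouse muscle with and without the histone methyltransferase SETDB1. Cells came from digested injured tibialis anterior muscle of mice aged 8 to 12 weeks, sorted with Hoechst and propidium iodide and loaded on the 10x Genomics 3' v2 system. The group called WT is the wild type, and the group called KO carries a conditional deletion of Setdb1; the labels used here give neither the Cre driver, the type of injury, the day after it, nor the number of mice behind a library. Each group is 1 library, so no difference below has a replicate check, and no p-value was computed. All intervals in brackets are 95% intervals that cover counting error only. They are exact except for the ratio of shares, where the interval is approximate.

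Pax7 and Myf5 mark muscle stem cells (satellite cells) and their early progeny, Myod1 marks activated myoblasts, Myog drives terminal differentiation before fusion into fibres, and Cdh15 encodes M-cadherin of the myogenic lineage. SETDB1 deposits H3K9 methylation and represses transposable elements and selected genes. In droplet sequencing a low UMI total can come from a small, damaged or poorly captured cell, or from a droplet without a cell that holds ambient RNA; a count of myogenic UMIs alone does not separate these.

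The KO library held more of the low-depth members, both in number and as a share. They were 1.71% [1.13 to 2.48] of the 1576 WT barcodes of that depth and 3.67% [3.20 to 4.19] of the 5726 KO ones, a ratio of 2.14 [1.43 to 3.33]. When barcodes with a UMI of Ptprc, Cd68, Col6a3, Pecam1, Kdr or Rgs5 were also left out, 19 WT and 60 KO members remained and the ratio of the shares turned to 0.869. Among all myogenic-marker barcodes with 1500 or more UMIs, the low-depth ones made up 27 of 618 in WT, 4.37% [2.90 to 6.29], and 210 of 537 in KO, 39.1% [35.0 to 43.4]. Low depth was also more frequent in the KO library outside the myogenic lineage: the same share was 13.9% in WT and 44.6% in KO for phagocyte-type barcodes, 8.68% and 42.6% for fibroblast-type barcodes, and 43.5% and 53.8% for endothelial-type barcodes.

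Within the depth window the members were of similar size in both libraries. UMI totals ran from 1656 to 4913 with a median of 3204 in WT, and from 1570 to 4973 with a median of 2776 in KO. The median number of genes detected was 1323 in WT and 1283.5 in KO. Together the WT members held 86375 UMIs and the KO members 613033, so WT values are the less precise ones. No barcode sequence was shared between the WT and KO members, and 11 were shared between all WT and KO barcodes of the window. Just below and above the upper depth limit there were 7 WT barcodes of at least 4000 and under 5000 UMIs and 12 of at least 5000 and under 6000, and 29 and 24 in KO. With a marker sum of 1, just outside the rule, there were 20 WT and 227 KO barcodes; with a sum of 2, just inside it, 8 and 84.

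The marker sums were set against the number of barcodes that would reach each sum if all UMIs of every barcode in the window were ambient RNA. In KO, 84 barcodes had a sum of 2 where ambient RNA alone would give 78.3, 58 had a sum of 3 or 4 where it would give 9.63, and 68 had 5 or more where it would give 0.0711. In WT, 8 barcodes had a sum of 2 against 43.5, 10 had 3 or 4 against 8.65, and 9 had 5 or more against 0.145. Members with a sum of 2 thus did not outnumber the ambient expectation by more than a few barcodes in KO and fell below it in WT, and the members with 5 or more UMIs were far above it in both. The 5 markers made up 158 CPM (UMIs scaled to a common total of the summed barcodes) of the WT ambient RNA and 113 CPM of the KO ambient RNA, against 1470 and 1644 CPM in the members. These sums use the genes that chose the members and are a description. At a sum of 1 the same expectation was 184 in WT and 515 in KO, above the 20 and 227 barcodes observed. It counts every UMI as ambient, so the nearness of 84 to 78.3 cannot say how many members with a sum of 2 are ambient. For sums of 2 the myogenic label rests on counts that ambient RNA can reach. The KO members with a sum of 5 or more also held phagocyte RNA, at up to 6.81% of the UMIs of a barcode.

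**Figure D1:**
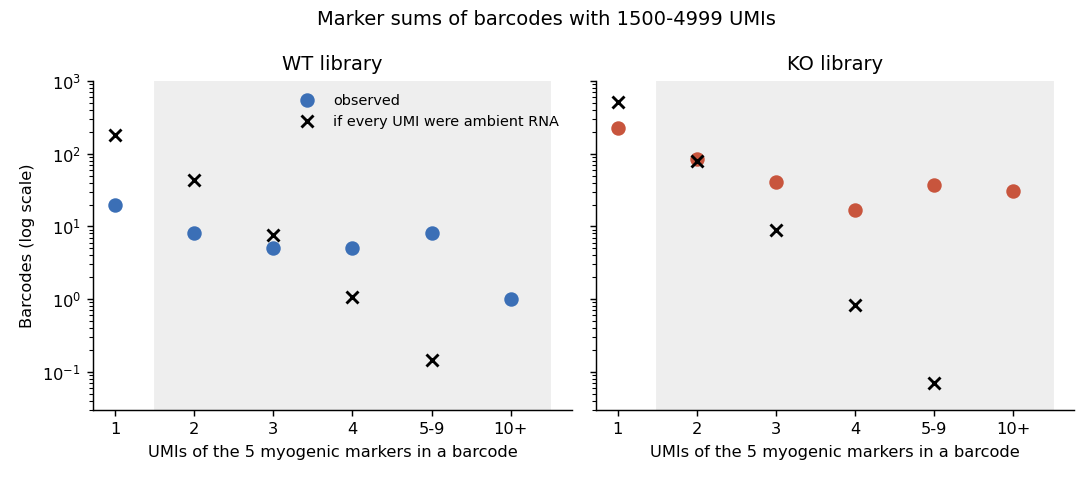
Number of barcodes with 1500 to under 5000 UMIs (y axis, log scale) at each summed UMI count of the 5 myogenic markers (x axis) in the WT and KO libraries; filled points are observed, crosses are the number if every UMI were ambient RNA, left out below the axis, and the grey area marks the sums that the rule accepts. In KO the observed count of 84 lies beside the cross of 78.3 at a sum of 2. The points lie above the crosses at higher sums, and at a sum of 1 the count of 227 lies below the cross of 515.

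Phagocyte RNA moved with the library and with the marker sum. The 18 phagocyte markers, among them Cd68, Lyz2 and C1qa, summed to 5013 CPM in the WT members and 21612 CPM in the KO members, against 1324 and 1743 CPM in deep barcodes and 39742 and 39694 CPM in ambient RNA. The members thus carried 0.126 of the ambient level in WT and 0.544 of it in KO. Only Csf1r of the list was at 0 in either library, and the rule required that. The 15 fibro-adipogenic markers summed to 2570 CPM in WT members and 7065 in KO members, with 9741 in KO ambient RNA, and the 13 endothelial markers to 289 and 1016 CPM, with 1716 in KO ambient RNA. Of the fibro-adipogenic list 4 genes were at 0 in WT and 1 in KO, and of the endothelial list 7 and 1. Schwann, T and NK, B and plasma, neutrophil and dendritic cell markers each summed to at most 176 CPM in the members of either library.

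Single barcodes covered a wide range. Phagocyte markers made up 0.0473% to 4.28% of the UMIs of WT members, with a median of 0.285%, and 0.0386% to 8.03% in KO members, with a median of 1.68%. The highest member of each library lay above the ambient level, as did the highest KO member with a marker sum of 5 or more, at 6.81%. Medians in deep barcodes were 0.0985% in WT and 0.115% in KO. In KO members the median was 2.38% at a marker sum of 2, 1.89% at 3 or 4 and 0.711% at 5 or more. Summed over barcodes by depth in KO, the level relative to ambient RNA was 0.595 from 1500 UMIs, 0.576 from 2500, 0.477 from 3500, 0.253 from 5000 and 0.0274 from 10000. Just below and above the 5000-UMI limit, in the barcodes counted above, it was 0.412 and 0.410 in KO and 0.202 and 0.0488 in WT, where 1 member held 4.28% phagocyte UMIs. How much this RNA contributes to each difference below was not tested, and ambient levels are given beside the genes. Whether it was ambient RNA or came from a cell in the droplet was not tested either, and no doublets were called.

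**Figure D2:**
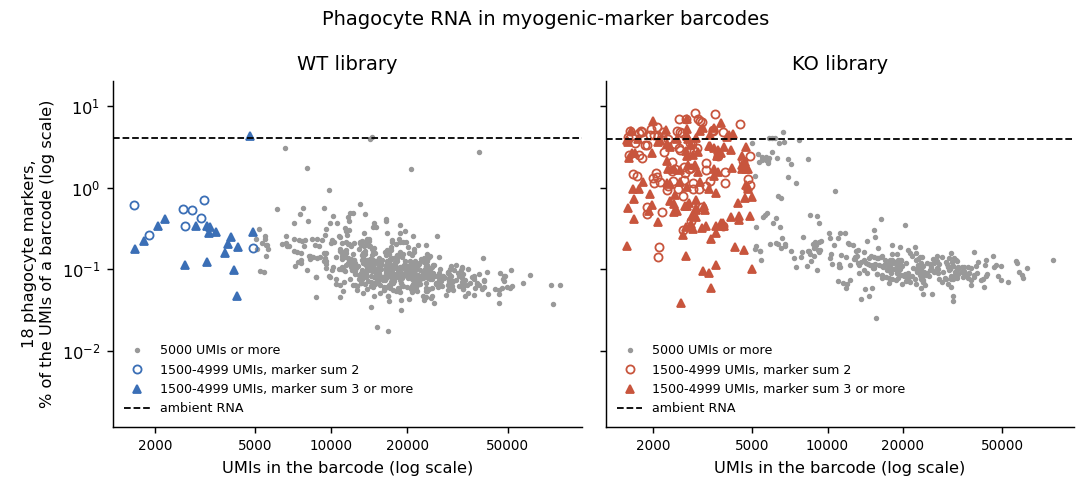
Share of the UMIs of a barcode that came from 18 phagocyte markers (y axis, log scale, in percent) against its UMI total (x axis, log scale) for myogenic-marker barcodes of each library; open circles are members with a marker sum of 2, triangles members with 3 or more, grey points deep barcodes, and the dashed line is ambient RNA. KO members spread from 0.0386% to 8.03% around a median of 1.68%, and the median of the KO deep barcodes is 0.115%.

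The members of the 2 libraries differed in which marker put them in the group. Pax7 was detected in 14 of 27 WT members (51.9%) and 32 of 210 KO members (15.2%), and Cdh15 in 18 (66.7%) and 83 (39.5%). Myf5 was found in 11 WT members (40.7%) and 53 KO members (25.2%), and Myod1 in 7 (25.9%) and 60 (28.6%). Myog had the opposite order, with 9 WT members (33.3%) and 137 KO members (65.2%). Members with Myog but neither Pax7 nor Myf5 were 5 of 27 in WT (18.5% [6.30 to 38.1]) and 117 of 210 in KO (55.7% [48.7 to 62.5]), and those with Pax7 or Myf5 but no Myog were 16 (59.3%) and 52 (24.8%). Deep barcodes also had Pax7 more often in WT, 78.5% against 57.5%, and Myog more often in KO, 44.0% against 18.6%. These shares use genes of the rule and are a description only.

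Setdb1 (ENSMUSG00000015697, chr3:95323525-95357202 on the minus strand, GRCm38), the deleted gene, was lower in the KO members. It had 5 UMIs in 5 WT members, 57.9 CPM [18.8 to 135], and 6 UMIs in 6 KO members, 9.79 CPM [3.59 to 21.3], a ratio of 0.169 [0.043 to 0.700]. Deep barcodes had 17.7 CPM in WT and 8.62 CPM in KO, a ratio of 0.486 [0.356 to 0.654], and ambient RNA had 16.2 CPM in each library. At the share of ambient RNA that the phagocyte markers allow, ambient RNA could give 2.04 CPM of the WT value and 8.80 CPM of the KO value. The library labelled KO was thus the lower one at both depths, from 11 UMIs in all at low depth. A 3' tag may lie outside the deleted part, so its presence does not speak on the deletion.

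Among 2857 genes with a mean of at least 50 CPM and at least 20 UMIs over both member groups, 281 were at least 2-fold higher in KO members than in WT members on the log2(CPM + 20) scale, 9.84% of those tested, and 233 were at least 2-fold lower, 8.16%. The pseudocount of 20 CPM understates changes of low genes. Between deep KO and WT barcodes the corresponding shares of 2681 genes were 0.932% and 0.671%. The WT members summed to 86375 UMIs and the deep WT barcodes to 11331643, so counting error is larger in the members. The shares at low depth and in deep barcodes are therefore not comparable. The median over all genes was -0.04 in the members. Lists below are read against these shares.

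Genes known from the deep barcodes of these libraries to be higher in KO were mostly higher in the KO members too; this list was taken from the same libraries, so its direction is no independent evidence. Of its 12 genes 7 passed the filter, all 7 were higher in KO and 5 were past 2-fold, with a median of 2.52 on the log2 scale, while the whole list summed to 208 CPM in WT members and 1760 CPM in KO members. Cck (ENSMUSG00000032532, chr9:121489824-121495694, minus strand), the gene of the peptide hormone cholecystokinin, had no UMI in the 27 WT members and 337 UMIs in 66 of the 210 KO members, 549.7 CPM [492.6 to 611.7]. With a floor of 3 counts over the WT sum, that is at least 15.8-fold higher in KO. KO ambient RNA held 48.5 CPM of Cck, KO deep barcodes 512 CPM and WT deep barcodes 1.77 CPM. No single barcode made the KO value: the highest held 27 of the 337 UMIs.

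Gsta4 (chr9:78182774-78209349, plus strand), a glutathione S-transferase that acts on lipid peroxidation products, was also at 0 in WT members and stood at 127 CPM [101 to 159] in KO members, in 45 barcodes, at least 3.66-fold higher. KO ambient RNA held 59.96 CPM of it. Resf1 (chr6:149309414-149335663, plus strand), which encodes a protein known to act in retroelement silencing, was at 57.9 CPM in WT members and 391 CPM [344 to 444] in KO members, a ratio of 6.76 [2.86 to 21.02], with 171 CPM in KO ambient RNA; with a marker sum of at least 5, which leaves 9 WT members, the log2 difference of Resf1 went from 2.40 to 0.73. Ecrg4 was at 11.6 and 179 CPM, a ratio of 15.5 [2.72 to 618], and Fkbp11 at 11.6 and 162 CPM, with 74.8 and 149 CPM in KO ambient RNA. A WT value of 11.6 CPM is 1 UMI. Atf7ip, which encodes a partner of SETDB1, and Crlf2 had ratios of 1.15 and 1.37, and the remaining genes of the list, Tmem52, Gstt1, Tubb3, Prkg2 and Abhd8, lay between 26.1 and 60.4 CPM in KO members and at 0 or 11.6 CPM in WT members.

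Of the 12 genes lower in deep KO barcodes, 7 passed the filter, 5 were lower in KO members and 4 were past 2-fold, with a median of -2.09, and the list summed to 1841 CPM in WT members and 538 in KO members. This list too was taken from the same libraries, so its direction is no independent evidence. A gene near 0 in KO members could pass the filter only through its WT level, so these counts and the median are a description only. Its median turned to 0.80 for barcodes under 3000 UMIs and to 0.76 for a marker sum of at least 5, settings that leave 11 and 9 WT members. AC160336.1 (chr14:44544055-44637201, minus strand), annotated as a long intergenic noncoding RNA, was at 382 CPM [263 to 537] in WT members, with 33 UMIs in 10 barcodes, and at 6.52 CPM [1.78 to 16.7] in KO members. Its ambient level differed as much, with 401 CPM in WT and 4.72 CPM in KO. Plagl1 (chr10:13060504-13131694, plus strand), an imprinted zinc-finger gene, was at 266 CPM in WT and 27.7 CPM in KO members, a ratio of 0.104 [0.0522 to 0.204]. Gpc3, the heparan sulphate proteoglycan glypican 3, was at 174 and 3.26 CPM, Lpar4 at 162 and 11.4 CPM, and Htra3 at 266 and 47.3 CPM. Mfap4, Col4a2, Hbegf, Irf7 and Iigp1 did not show a 2-fold lower level: interferon regulator Irf7 was at 81.0 CPM in WT and 158 CPM in KO members, and Mfap4 at 92.6 and 93.0 CPM.

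**Figure D3:**
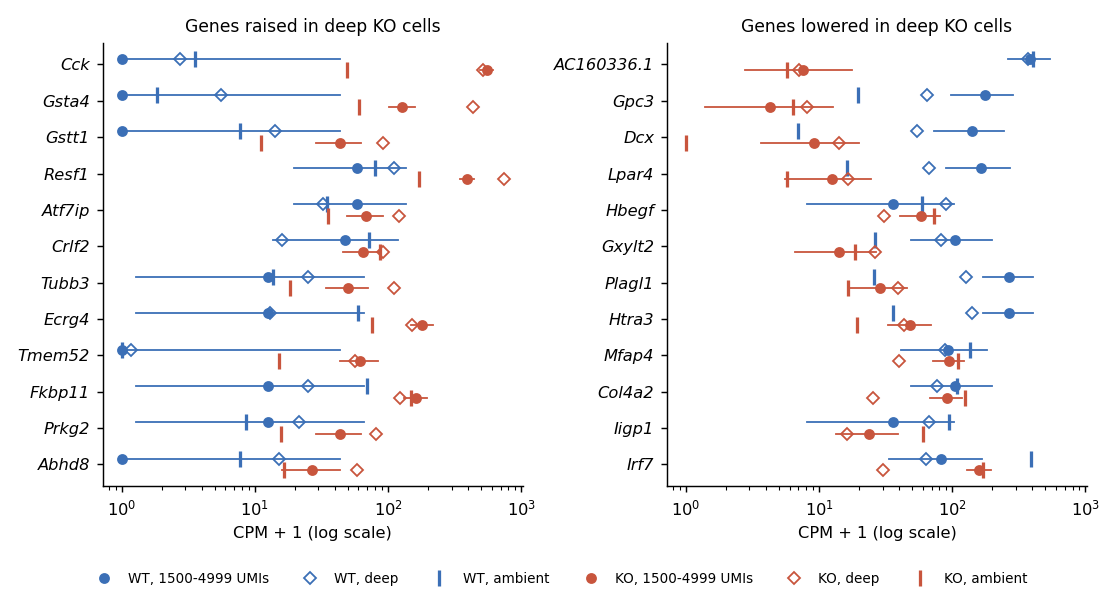
Summed expression of the genes that are higher or lower in deep KO barcodes of these libraries, as CPM + 1 on a log axis, for WT and KO members, deep barcodes and ambient RNA; bars through the points are exact 95% Poisson intervals. Cck lies at 549.7 CPM in the KO members and at 0 in the WT members.

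The other genes highest in KO members against WT members were mostly transcripts that are abundant in ambient RNA. Named by the bound of the ratio nearest to 1, they were Aspn, C1qb, Cck, Cd74, Col1a1, Cthrc1, Cxcl2, Fcer1g, H2-Eb1, Ly6a, Srgn and Tagln. C1qb, a complement subunit made by macrophages, was at 231 CPM in WT members and 1863 CPM in KO members, with 3034 CPM in KO ambient RNA. Cd74, the class II invariant chain, was at 382 and 2509 CPM, with 2685 CPM in KO ambient RNA. Collagen gene Col1a1 was at 197 and 2817 CPM, a ratio of 14.3 [8.91 to 24.6], with 2628 CPM in KO ambient RNA and 1317 CPM in WT ambient RNA. The neutrophil chemokine Cxcl2 was at 92.6 and 1445 CPM, with 1600 CPM in KO ambient RNA and 1043 CPM in WT ambient RNA. Cthrc1, a secreted collagen-associated protein, was at 34.7 and 442 CPM, with 361 CPM in KO ambient RNA. The smooth-muscle and contractile gene Tagln was at 11.6 CPM in WT members, from 1 UMI, and 308 CPM in KO members, with 230 CPM in KO ambient RNA. Srgn, a proteoglycan of blood cell granules, had no UMI in WT members and 217 CPM in KO members, at least 6.25-fold higher, with 350 CPM in KO ambient RNA. In KO members Col1a1, Cthrc1 and Tagln were thus above their level in KO ambient RNA, and C1qb, Cd74, Cxcl2 and Srgn below it.

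Gene groups common in immune cells and fibroblasts moved the same way as these markers. All 16 phagocyte markers that passed the filter were past 2-fold higher in KO members, with a median of 2.09. Among MHC class II genes 5 of 5 were higher and 4 past 2-fold, median 2.54, and among class I genes 5 of 6 were higher and 3 past 2-fold, median 1.03. Of 10 interferon-stimulated genes 8 were higher and 4 past 2-fold, with a median of 0.77: Ifi27l2a was at 208 CPM in WT members and 820.5 CPM in KO members, with 1585 CPM in KO ambient RNA, and Bst2 at 185 and 435.5 CPM. Between deep barcodes Ifi27l2a had the opposite order, 177 CPM in WT and 78.9 CPM in KO. Matrix genes were higher in 18 of 26 cases, 10 of them past 2-fold, median 0.61; that median was 1.71 under 3000 UMIs and 1.26 at up to 5% mitochondrial UMIs, and turned to -0.60 with ambient RNA subtracted at the share the phagocyte markers allow. With the same subtraction the medians were 1.00 for class I, 5.37 for class II and 1.38 for interferon-stimulated genes, and that of the fibro-adipogenic markers was 0.06. Where the subtraction leaves little of a gene in WT members, the log2 difference depends on the pseudocount. The move from 2.54 to 5.37 for class II is therefore no measure of a larger difference. The phagocyte and fibro-adipogenic marker sums given above were higher in the same members, and beyond the subtraction the part of that RNA in the result was not tested.

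The genes lowest in KO members were AC160336.1, Ckm, Cox6a2, Csrp3, Igfbp5, Lmcd1, Mb, Mustn1, Rn7sk, Smpx, Tcap and Trim63, most of them genes of mature fibres. Ckm, muscle creatine kinase, was at 787 CPM in WT members and 44.0 CPM in KO members, Csrp3, a Z-disc protein, at 394 and 3.26 CPM, and Mb, myoglobin, at 220 and 13.1 CPM. Of the 17 sarcomere and adult fibre genes that passed the filter 13 were lower in KO, with a median of -1.07. This fibre signal came from 2 of the 27 WT members: they held 150 of the 182 muscle fibre marker UMIs (82.4%) and 331 of the 351 UMIs of Acta1, skeletal actin (94.3%). In KO the 235 muscle fibre UMIs were spread over 102 barcodes, with at most 10 in one. Without those 2 barcodes the sarcomere sum of the WT members went from 17887 to 3665 CPM [3257 to 4110], beside 4012 CPM in deep WT barcodes and 5802 CPM in KO members, no UMI of Ckm, Csrp3 or Mb was left, and the median of the sarcomere list turned to 0.64.

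Stem and quiescence genes were lower in KO members. Of 18 that passed the filter 15 were lower and 10 past 2-fold, with a median of -1.22, and none was past 2-fold higher; the list summed to 7178 CPM in WT members and 4119 CPM in KO members. The median was -0.72 at up to 5% mitochondrial UMIs, -0.58 with ambient RNA subtracted and -0.55 with no filter on low values. Igfbp5 (chr1:72857932-72874884, minus strand), a secreted binder of insulin-like growth factors, was at 1806 CPM in WT members, with 156 UMIs in 17 barcodes, and at 212 CPM in KO members, a ratio of 0.117 [0.0923 to 0.149]. Chodl was at 382 and 48.9 CPM and Dag1, the dystroglycan gene, at 891.5 and 251 CPM. In WT members the 5 highest barcodes for each gene held 66.7% of the Igfbp5 UMIs, 90.9% of the Chodl UMIs and 49.4% of the Dag1 UMIs. Deep barcodes held 519 CPM of Dag1 in WT and 465 CPM in KO, and 70.1 and 31.1 CPM of Chodl. The list includes genes that separate Pax7-positive from Myog-positive barcodes, whose shares differ between the member groups as given above. Among members with Pax7 or Myf5 but no Myog, Igfbp5 was at 2276 CPM [1881 to 2730] in WT and 533 CPM [425 to 661] in KO. Chodl was at 647 and 154 CPM there, and Msc had the opposite order, at 216 and 315 CPM. Deep barcodes divided the same way held 661 and 544 CPM of Igfbp5. The part of the marker shares in the list's difference was not tested.

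Imprinted genes were lower in 8 of 11 cases, 5 of them past 2-fold, with a median of -0.83. Mest was at 1389 CPM in WT members and 313 CPM in KO members, Peg3 at 1065 and 292 CPM, and H19 at 533 and 212 CPM. The median of the imprinted list was 0.12 under 3000 UMIs and 0.04 at up to 5% mitochondrial UMIs, with 11 and 17 WT members. Cdkn1c, a cyclin-dependent kinase inhibitor, was at 1331 and 1721 CPM. The rule capped mitochondrial UMIs at 10%, so the values of mitochondria-encoded genes are a description only. All 9 mitochondria-encoded genes that passed were lower in KO members, 6 past 2-fold, with a median of -1.24: mt-Co1 was at 2443 and 762 CPM and mt-Cytb at 6923 and 3103 CPM. For barcodes under 3000 UMIs, 11 in WT, that median was 0.20, and at up to 5% mitochondrial UMIs it was -0.33. The median mitochondrial share was 2.65% in WT members and 1.29% in KO members, and with an upper limit of 5% instead of 10%, 17 WT and 207 KO members were left. Commitment and fusion genes (10 of 19 higher, median 0.28), G2 and M phase genes (6 of 10 higher, 0.26), immediate early and heat shock genes (16 of 29, 0.10), oxidative phosphorylation genes (20 of 35, 0.03) and heterochromatin genes (6 of 9, 0.16) had medians nearer to 0. The G2 and M phase median turned to -0.77 under 3000 UMIs and -0.33 at up to 5% mitochondrial UMIs, that of commitment and fusion genes was 0.81 with ambient RNA subtracted, and that of oxidative phosphorylation genes 0.64 with a marker sum of at least 5.

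Within the KO library, 182 of 2772 genes were at least 2-fold higher in the members than in deep barcodes (6.57%) and 30 were at least 2-fold lower (1.08%), with a median of -0.16 over all genes. The 12 highest were C1qa, C1qb, C1qc, Ctss, Cxcl2, Fcgr3, Fyb, Ly86, Mrc1, Ms4a6c, Ms4a7 and Plek, which are expressed by phagocytes. C1qa was at 1692 CPM in the members and 117 CPM in deep barcodes, and Cxcl2 at 1445 and 51.5 CPM, a ratio of 28.0. All 16 phagocyte markers tested, all 4 class II genes and 6 of 6 class I genes were higher in the members, with medians of 3.36, 2.98 and 1.51, as were 7 of 7 interferon-stimulated genes (1.37) and 22 of 24 matrix genes (1.08). With ambient RNA subtracted the medians of class I, interferon-stimulated and matrix genes were 0.69, 0.69 and 0.59. Ambient RNA held 39694 CPM of the phagocyte markers and 17484 CPM of the matrix genes, above the 21612 and 12720.4 CPM of the members.

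Cell cycle genes were lower in the KO members than in the deep KO barcodes. All 15 G2 and M phase genes that passed the filter were lower, 4 past 2-fold, with a median of -0.80, and all 10 S phase genes were lower, 1 past 2-fold, median -0.58. Top2a (chr11:98992943-99024189, minus strand), the topoisomerase of chromosome condensation, was at 97.9 CPM in the members and 256 CPM in deep barcodes, a ratio of 0.382 [0.291 to 0.495]. Mki67, the proliferation antigen gene, was at 66.9 and 146 CPM, with 75.5 CPM in ambient RNA, and Cenpf, a kinetochore protein, at 65.3 and 145 CPM. By marker sum the G2 and M phase list summed to 2200 CPM at 2, 1685 CPM at 3 or 4 and 945 CPM at 5 or more, so it was lowest in the members with most myogenic UMIs and least phagocyte RNA. Without barcodes holding a UMI of Ptprc, Cd68, Col6a3, Pecam1, Kdr or Rgs5, which leaves 60 KO members, the median of the G2 and M phase list was -0.29 and the log2 difference of Top2a went from -1.23 to -0.42. In WT members 12 of 16 such genes were lower than in deep barcodes, with a median of -0.36, which turned to 0.70 under 3000 UMIs and 0.24 at up to 5% mitochondrial UMIs.

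Of 17 sarcomere and adult fibre genes 12 were lower in the KO members than in deep KO barcodes, with 1 past 2-fold in each direction and a median of -0.37, and of 18 commitment and fusion genes 10 were lower, median -0.05. Both medians turned with a marker sum of at least 5, to 1.07 and 0.75, and with ambient RNA subtracted, to 0.42 and 0.73. Among the genes ranked lowest were 3 muscle genes. Des (chr1:75360329-75368579, plus strand), the intermediate filament of muscle, was at 517 CPM in the members and 1127 CPM in deep barcodes, Ankrd1 at 189 and 510 CPM, and Eno3, muscle enolase, at 143 and 385 CPM. With ambient RNA subtracted all 3 were less than 2-fold lower, with log2 differences of -0.40, -0.70 and -0.80. Of 35 oxidative phosphorylation genes 33 were lower, none past 2-fold, median -0.37, and of 10 glycolysis genes 9 were lower, median -0.37. Malat1, a nuclear-retained noncoding RNA, made up 2.29% of the UMIs of KO members, 1.22% in deep KO barcodes and 1.66% in ambient RNA, and 2.79%, 1.63% and 1.75% in WT, so in both libraries it was higher in the members than in either. Over all barcodes of the depth window it was 2.59% in KO and 4.24% in WT, above the members. Ribosomal protein transcripts made up 19.2% of the member UMIs in each library and 26.6% and 23.3% in deep WT and KO barcodes.

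The genes that were higher in the KO library behaved differently with depth. Cck was at 549.7 CPM in the members and 512 CPM in deep barcodes, a log2 difference that went from 0.10 to 1.03 with a marker sum of at least 5 and to 0.97 with ambient RNA subtracted. Barcodes with Myog but neither Pax7 nor Myf5 were 117 of 210 members and 63 of 327 deep barcodes, and within them Cck was lower in the members, at 900 against 2457 CPM. Resf1 stood at 0.530 of its deep level and Gsta4 at 0.292 [0.230 to 0.366], at 127 and 436 CPM. Of 11 genes of that list that passed, 7 were lower than in deep barcodes and 1, Gsta4, past 2-fold, with a median of -0.69; in the 60 KO members without the 6 genes of other cell types the log2 difference of Gsta4 was -0.63 instead of -1.63. With increasing marker sum Cck was at 278, 230 and 1123 CPM, against 50.4 CPM in barcodes with a sum of 1, while Gsta4 was at 98.8, 186 and 106 CPM and Resf1 at 489, 394 and 284 CPM. The myogenic fusion gene Mymk (myomaker) went from 26.9 to 82.1 and 521 CPM, and Actc1, cardiac actin of early muscle, from 89.8 to 224 and 2034 CPM. C1qa went the other way, from 2186 to 1587 and 1253 CPM, and Col1a1 from 3416 to 2856 and 2140 CPM. Cxcl2 did not follow C1qa: it was at 893, 1488 and 2000 CPM, and Cthrc1 was at 242, 257 and 819 CPM.

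**Figure D4:**
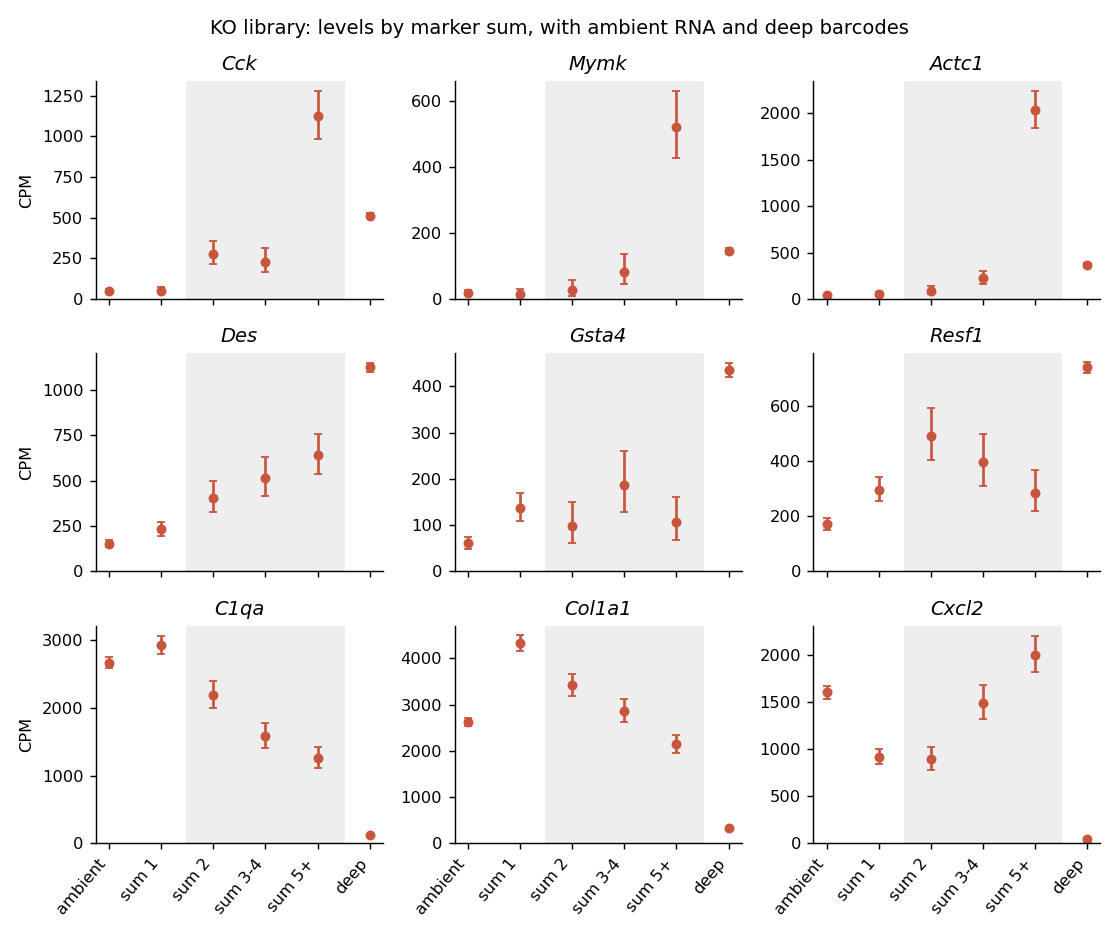
Summed expression in CPM (linear axes from 0) of single genes in KO barcodes with 1500 to under 5000 UMIs at increasing sums of the 5 myogenic markers, with deep KO barcodes and KO ambient RNA beside them; bars are exact 95% Poisson intervals. Mymk and Actc1 climb to 521 and 2034 CPM at 5 or more marker UMIs, while C1qa goes from 2186 CPM at 2 to 1253 CPM.

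Shares of barcodes with a UMI were compared after each barcode was thinned to 1500 UMIs, which evens the depth at which a gene is detected. The barcodes were chosen before thinning, so the same marker sum was required at unlike depths, and that difference remains. Cck was found in 59 of 210 KO members, 28.1% [22.1 to 34.7], and in 31.4% before thinning. Thinned shares were 8.26% in deep KO barcodes (14.7% before), 34 of 68 in the KO members with a marker sum of 5 or more, 0 of 27 WT members, which allows up to 12.8%, and 1.503% in KO phagocyte-type barcodes of the same window. Barcodes with Myog but neither Pax7 nor Myf5 were 117 of 210 KO members and 63 of 327 deep KO barcodes. Their part in the Cck shares was not tested. Gsta4 was in 14.8% of KO members and 27.5% of deep KO barcodes after thinning (21.4% and 63.3% before), and in 3.36% of phagocyte-type barcodes, while Resf1 was in 33.3% and 54.7% (44.3% and 91.7% before), and in 17.4%. Cxcl2 was in 47.6% of KO members, 7.34% of deep KO barcodes and 59.6% of the phagocyte-type barcodes. Apoe, a macrophage and stromal transcript, was in 96.7% of KO members, 85.2% of WT members and 99.6% of KO phagocyte-type barcodes, and so did not separate them. Median depths before thinning were 2776 UMIs in KO members, 18514 in deep KO barcodes, 2465 in KO phagocyte-type barcodes and 3204 in WT members.

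In the WT library, 194 of 2787 genes were at least 2-fold higher in the members than in deep barcodes (6.96%) and 99 were lower (3.55%), with a median of 0.02. The highest were Ckm, Cox6a2, Csrp3, Hspb7, Mb, Tcap, Tnnc2 and Trim63, and 18 of 19 sarcomere genes were higher, 10 past 2-fold, median 1.27; the 2 barcodes named above hold most of these UMIs, and without them the median was -0.06. The lowest were Cox8a, H1f5, H2ac8, H4c4, S100a11, S100a4, Sox9 and Vim. Vim (chr2:13573927-13582826, plus strand), the intermediate filament vimentin of activated myoblasts and stromal cells, was at 2153 CPM in members and 4824 CPM in deep barcodes, the calcium-binding protein gene S100a11 at 382 and 1069 CPM, and the linker histone gene H1f5 at 34.7 and 295 CPM. Stem and quiescence genes were higher in 13 of 17 cases (median 0.33), and commitment and fusion genes in 13 of 18 (0.32). All 9 mitochondria-encoded genes were higher, 4 past 2-fold, with a median of 0.99, which turned to -0.46 under 3000 UMIs and -0.14 at up to 5% mitochondrial UMIs. In KO all 9 were lower than in deep barcodes, with a median of -0.22, which was 0.06 with ambient RNA subtracted. The rule limits the mitochondrial share at both depths, so these values are a description only. Interferon-stimulated genes were not raised, with 4 of 10 higher and a median of -0.07, and the 9 phagocyte markers tested were all higher, 8 past 2-fold, median 1.76.

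The KO members were then divided by the marker that chose them, 117 with Myog but neither Pax7 nor Myf5 and 52 with Pax7 or Myf5 but no Myog. Of 2779 genes tested, 113 were at least 2-fold higher in the Myog group (4.07%) and 102 at least 2-fold lower (3.67%), median -0.02. Differentiation genes went with Myog: all 16 sarcomere genes tested were higher, 14 past 2-fold, median 2.61, and 15 of 18 commitment and fusion genes, 8 past 2-fold, median 0.88. Actc1 was at 1401 CPM in the Myog group and 12.8 CPM in the other, a ratio of 109 [30.0 to 903], Mymk at 348 and 6.42 CPM, Mymx, which encodes the fusion peptide myomixer, at 246 and 6.42 CPM, and Cdkn1c at 2772 and 70.7 CPM. Stem and quiescence genes went with Pax7 and Myf5: 13 of 15 were lower in the Myog group, 9 past 2-fold, median -1.13. Msc, a repressor of the basic helix-loop-helix family, had 5 UMIs in the Myog group and 49 in the other, a CPM ratio of 0.0477 [0.0148 to 0.119], and the Notch target Heyl 7 and 25 UMIs, a ratio of 0.131 [0.0478 to 0.311], and the receptor Notch3 was at 12.0 and 122 CPM.

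The 2 groups of KO members also differed in the genes raised in KO. Cck was at 900 CPM in the Myog group and 12.8 CPM in the Pax7 or Myf5 group, a ratio of 70.1 [19.2 to 581], and the deep KO barcodes divided by the same markers had 2457 and 1.49 CPM. Resf1 had the opposite order, with 165 CPM in the Myog group and 764 CPM in the other, a ratio of 0.216 [0.154 to 0.300], and 256 and 984 CPM in deep barcodes. Tubb3 had 5 UMIs in the Myog group and 21 in the other, a CPM ratio of 0.111 [0.0328 to 0.303]. Of the genes higher in deep KO cells 5 of 10 were higher in the Myog group and 5 lower. Cxcl2 was at 2148 CPM in the Myog members and 405 CPM in the others, while the deep barcodes had 51.0 and 56.7 CPM. Erythroid markers moved with the split as well, with 4 of 4 past 2-fold higher in the Myog group, median 2.95, and phagocyte markers stood at 0.591 of the ambient level in the Myog group and 0.402 in the other; the part of either in these differences was not tested. The low-depth values of Cck, Actc1 and Mymk therefore kept the order of the deep barcodes, and those of Cxcl2 did not.

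**Figure D5:**
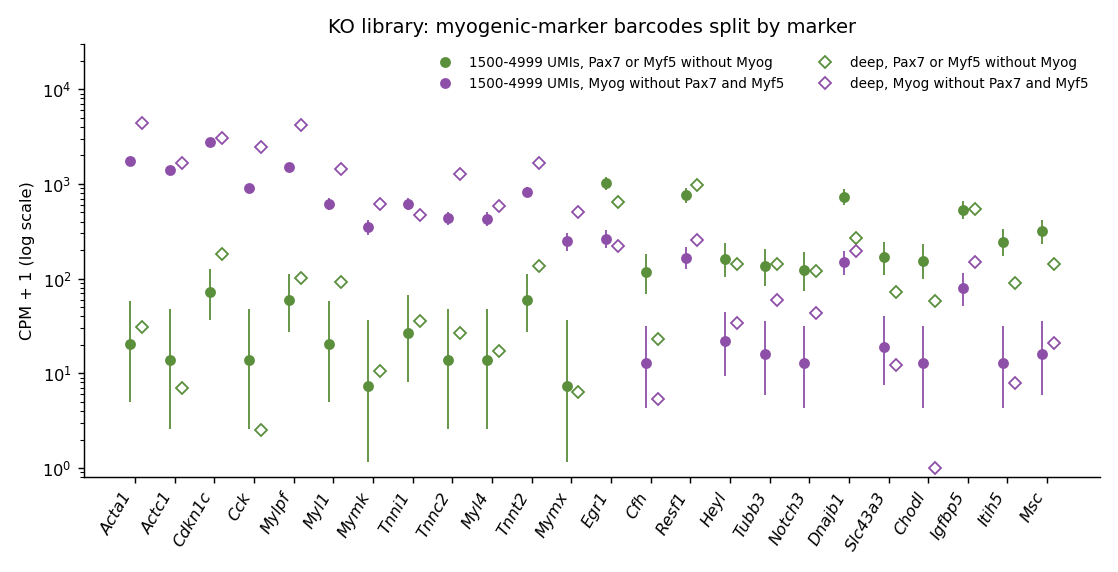
Summed expression as CPM + 1 (log axis) in KO members with Myog but neither Pax7 nor Myf5 and with Pax7 or Myf5 but no Myog, beside deep KO barcodes divided the same way; bars on the members are exact 95% Poisson intervals. Cck is at 900 CPM in the Myog members and 12.8 CPM in the others, and Resf1 at 165 and 764 CPM.

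The members were last compared with the deep barcodes and the ambient RNA of their own library together. Among genes with at least 20 UMIs in the members, 17 of 3831 were at least 2-fold above both in KO (0.444%) and 35 of 468 in WT (7.48%). The filter used the members' own UMIs, and 20 UMIs are 232 CPM in WT members and 32.6 CPM in KO members. The shares of the 2 libraries are therefore not comparable. The WT genes furthest above both were fibre genes such as Tcap, Csrp3 and Ckm, with all their UMIs in 2 or 3 barcodes, and without the 2 WT barcodes named above 21 of 403 genes were at least 2-fold above both (5.21%). In KO, chosen after their values were seen, they included the early and slow sarcomere genes Tnni1, Tnnc1 and Actc1. Actc1 was at 788 CPM in the members, 367 CPM in deep barcodes and 42.4 CPM in ambient RNA. Deep barcodes with Myog but neither Pax7 nor Myf5 held 1642 CPM of Actc1, above the 1401 CPM of such members. Tnni1, slow skeletal troponin I, was at 343, 122 and 18.9 CPM, and at 615 CPM in the Myog members against 463 CPM in deep Myog barcodes. The receptor gene Notch2 was at 99.5 CPM in the members, 24.1 CPM in deep barcodes and 28.3 CPM in ambient RNA, from 61 UMIs in 47 barcodes. Ankmy1 was at 37.5, 6.68 and 1.35 CPM, from 23 UMIs in 21 barcodes.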

How the data were processed

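The deposited files hold raw UMI counts for 55487 genes and all barcodes of 1 WT and 1 KO library. Per the submitters' processing notes the tools were STARsolo 2.7.9a, STAR 2.7.8a and Seurat 4.0.1 with GRCm38; the sources used here name neither an annotation release nor how shared reads were counted, so reads shared by close copies (Acta1 and Actc1, histone genes) are uncertain. GENCODE M21 gave coordinates for 55141 of the gene IDs. Members, gene lists and comparisons were chosen with earlier results of these data known.

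Counts were summed over the barcodes of a class and divided by all UMIs of the sum (CPM). Intervals are Poisson for CPM, Clopper-Pearson for shares and conditional binomial for ratios, at 95%, the last being approximate for the ratio of shares. A gene was compared when its mean was at least 50 CPM with at least 20 UMIs, and called at 2-fold on log2(CPM + 20). With 1 library a group no test was made. What ambient RNA could give is the ambient CPM times the phagocyte marker level of the sum over that of ambient RNA. That share need not hold for other RNA, which limits the ambient subtraction. In WT members the level over ambient RNA was 0.126 for phagocyte, 0.401 for fibro-adipogenic and 0.156 for endothelial markers. In KO members these levels were 0.544, 0.725 and 0.592. No doublets were called.

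Named are the 12 highest and 12 lowest genes (8 and 8 in WT low against deep) by the interval bound nearest to a ratio of 1, without mitochondrial, ribosomal protein, globin, immunoglobulin and Y-linked genes, Xist, numbered models and the rule's genes. To these come up to 4 members of each of 21 functional and 13 marker lists, and the genes raised or lowered in deep KO barcodes. For the split of KO members the same ranking was used, after values were seen.

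Not described above were the germline and early embryo list, which summed to 0 CPM in WT members and 31.0 CPM in KO members, the p53 and apoptosis list (7 of 9 higher in KO members, median 0.59), the tenocyte (69.5 and 292 CPM), mural (741 and 1693 CPM), platelet (139 and 605 CPM) and erythroid lists (208 and 688 CPM), and S phase genes between libraries (3 of 3 higher). Python 3.11.15, numpy 2.4.6, pandas 2.3.3, scipy 1.17.1 and matplotlib 3.10.9 were used, and the scripts were checked on simulated data.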

Additional observations from a re-analysis of the deposited data

Results flagged for a closer look

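Tagln, a calponin-type actin binder of smooth muscle, differed between the libraries in its relation to depth. On the log2(CPM + 20) scale its level in the members less that in deep barcodes was -1.97 in WT and 1.09 in KO. The difference between the libraries was not tested, since each group is 1 library. The WT members hold 11.6 CPM of Tagln, which is 1 UMI, so the WT value rests on a single molecule.

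Barcodes shallower than the window carried the same markers. In KO 47 barcodes of 500 to 1499 UMIs met the other terms of the rule, and in WT 9 did. They were used in no comparison.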

How the results depend on the processing

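No paired analysis was possible because each group is 1 library with no replicate number. No group has a second library, so no replicate could be left out. Settings with a marker sum of 5, ambient subtraction or 2 WT barcodes left out were chosen after seeing the data. The ratio of shares, 2.14, turned to 0.869 without barcodes holding a UMI of the 6 further genes, and stayed above 1 in the other settings tried for it. Setdb1 then had a ratio of 0. Genes past 2-fold higher in KO members went from 281 to 818 with no filter and 441 with a sum of at least 5, and lower ones went from 233 to 97 without the 6 genes, 123 with a pseudocount of 50, 681 with no filter and 131 with a sum of at least 5. In KO low against deep, 182 higher genes became 106 without the 6 genes, 399 with no filter and 93 with ambient RNA subtracted. The 30 lower genes became 47 with a sum of at least 3, 50 under 3000 UMIs, 61 and 7 with pseudocounts of 5 and 50, 50 with no filter, 18 with median-ratio scaling, 92 with a sum of at least 5 and 89 with ambient RNA subtracted. In WT low against deep, 194 higher genes became 651 under 3000 UMIs, 320 at up to 5% mitochondrial UMIs, 89 with a pseudocount of 50, 523 with no filter and 559 with a sum of at least 5. The 99 lower genes became 162 with a sum of at least 3, 241 under 3000 UMIs, 155 at up to 5% mitochondrial UMIs, 165 and 51 with pseudocounts of 5 and 50, 424 with no filter, 273 with a sum of at least 5 and 174 with ambient RNA subtracted. These settings change which barcodes or genes are compared, and beyond that the cause was not tested. WT groups were small in several of them: 9 members with a sum of at least 5 and 11 under 3000 UMIs.

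Fibre genes reversed with the 2 WT barcodes. Between libraries, with a sum of at least 5 and without the 2 barcodes, log2 differences were 1.95 and 1.86 for Acta1, 2.13 and 1.68 for Ckm, 0.31 and 0.22 for Csrp3, 0.97 and 0.72 for Mb, and 0.63 and 0.64 for the sarcomere median. In WT low against deep they were -1.14 and -1.11 for Ckm, -0.55 and -0.53 for Csrp3, and -0.11 in each for Mb, and the sarcomere median without the 2 barcodes was -0.0643. Rn7sk turned to 0.10 at up to 5% mitochondrial UMIs. Under 3000 UMIs the medians of the mitochondria-encoded and the lowered genes turned to 0.20 and 0.80, the latter to 0.76 with a sum of at least 5. Of the other values tracked, 2664 kept direction and side of 2-fold or moved little, 94 fell below 2-fold and 177 moved.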
